A study of Saccharomyces cerevisiae with 2 samples.

Results

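The DNA described here is the set of array probes at which recently made histone H3 stood highest over H3 of all ages in yeast cells that lack H2A.Z. A probe was called hot when its log2 ratio of H3-Flag to H3-Myc lay at 3 or above on both arrays, that is 8-fold over the median probe of each array. The set holds 1039 probes, which is 2.78% of the 37318 nuclear probes that could be called. Another 3964 of the 41282 nuclear probes on the array were too dim in Flag or Myc on an array. The probes were selected on this measured ratio, so their ratios are given as a description and carry no test.

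The cells were budding yeast, Saccharomyces cerevisiae, of strain MDY513, in which HTZ1 is deleted. HTZ1 codes for the histone variant H2A.Z. They were held in G1 by alpha factor, the mating pheromone, at 4 µg/mL over 4 h, filtered, and moved into rich medium with 2% galactose for 180 min. All cells carried H3-Myc, made throughout, and H3-Flag, made once galactose is present. Chromatin was precipitated against each tag, and the Myc precipitate (Cy5) and the Flag precipitate (Cy3) of each replicate were hybridised together on a 2-colour tiling array. There is 1 group of 2 replicates, and the labels do not say whether these came from separate cultures. Both arrays have the same dye orientation, so a dye effect and the difference between the tags cannot be told apart. A strain with HTZ1 is not analysed here, so nothing below is tied to the loss of H2A.Z.

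Chromatin is not static between cell divisions. Nucleosomes are taken off and replaced as polymerases pass through genes and as remodelling complexes and transcription factors work on promoters, and H3 and H4 made outside S phase enter chromatin by this route. In cells arrested in G1, a locus with much new H3 is therefore usually read as one whose nucleosomes are replaced often. In yeast, promoters are known for such exchange, and the middle of long reading frames is known for its absence. H2A.Z normally sits in the nucleosomes next to the start of transcription.

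The deleted gene was checked first. The probe within HTZ1 itself, from 303821 to 303880 of chromosome 15, was too dim in Flag or Myc on an array to be used. Its log2 Flag level over the channel median was -4.86 on replicate 1 and -4.13 on replicate 2. Its Myc level was -4.67 and -5.46. Upstream of the frame, 2 promoter probes were measured. The nearer one had log2 ratios of 2.19 on replicate 1 and 2.68 on replicate 2, and the farther one 1.74 and 1.76. Neither was hot. No probe was saturated, and 53 of the hot probes carried an outlier flag of the scanner software on at least 1 array.

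The 1039 hot probes ranged from 3.00 to 5.15 on replicate 1, with a median of 3.52, and from 3.00 to 4.94 on replicate 2, with a median of 3.55. The median of the mean of both arrays was 3.53, or 11.5-fold over the array median. A mean of at least 3.5 was reached by 555 probes (53.4%), of at least 4 by 158 (15.2%) and of at least 4.5 by 22 (2.12%), and 1 probe passed 5. The SD between the arrays was 0.14 at the median hot probe (n = 2), against 0.16 at the median of all eligible probes. The rule asks for 3 on both arrays and so tends to remove probes on which they disagree. These SDs therefore do not compare reproducibility. Across all eligible probes the arrays correlated at Pearson r = 0.965, a description of probes on 2 arrays and not of independent samples.

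The threshold cuts a continuous tail. Just inside it lay a probe between VOA1 and CLB1, at 3.5 and 3.00 on replicates 1 and 2, one in the COQ21 frame at 3.00 and 3.23, and one in the ARE2 promoter at 3.00 and 3.06. Just outside lay probes in the frames of YPR195C (3.62 and 3.00), HYP2 (3.00 and 3.15) and YBL029W (3.00 and 3.17), whose lower value was under 3 before rounding. Another 261 probes reached 3 on replicate 1 alone and 245 on replicate 2 alone, and the median of each of these sets on the other array was 2.82. Among the hot probes, the arrays differed most at the HTA1 promoter (3.16 and 4.47, with an outlier flag), in the YAT1 frame (3.10 and 4.22) and at the DIC1 promoter (3.11 and 4.22).

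**Figure D1:**
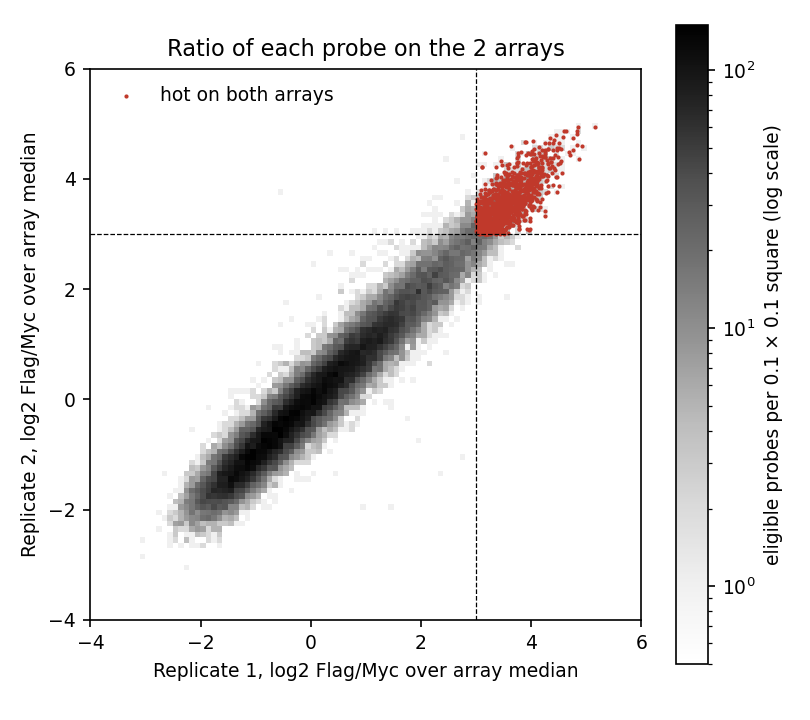
Log2 ratio of H3-Flag to H3-Myc over the array median for every eligible probe, replicate 1 on the horizontal and replicate 2 on the vertical axis; grey shows the number of probes per square on a log scale and red points are the 1039 hot probes. The dashed lines mark 3 on each array, and the hot probes form the upper end of one continuous cloud.

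The hot probes were concentrated outside reading frames. Of the eligible probes 73.1% lay in a frame, but of the hot ones 47.2% (490 probes). Promoters, here the DNA between frames up to 500 bp before a start codon, held 265 hot probes, or 4.48% of the eligible promoter probes. DNA that faces a start codon from more than 500 bp away, called far upstream here, held 243, or 11.4%. In frames the share was 1.80%, and between convergent genes, where only 3′ ends meet, it was 1.85% (28 probes). All 4 shares stand against the 2.78% of all eligible probes. The remaining 13 hot probes lay in gaps whose frame ends are uncertain in the files and were not placed.

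The order of far upstream, promoter and frame was the same on each array alone. Far upstream DNA reached 3 at 14.6% of its probes on replicate 1 and 13.1% on replicate 2, promoters at 5.95% and 5.56%, and frames at 2.10% and 2.27%. The classes are not equally measurable. Of promoter probes 27.3% were too dim to be used, of 3′ intergenic ones 27.2%, of far upstream ones 20.7% and of frame probes 1.93%, and the part of this loss in the shares was not tested. With no filter on dim probes, the shares were 9.09% far upstream, 3.34% in promoters and 1.58% in frames. In that setting each array was centred anew on all nuclear probes, so the cut also lay higher than above.

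**Figure D2:**
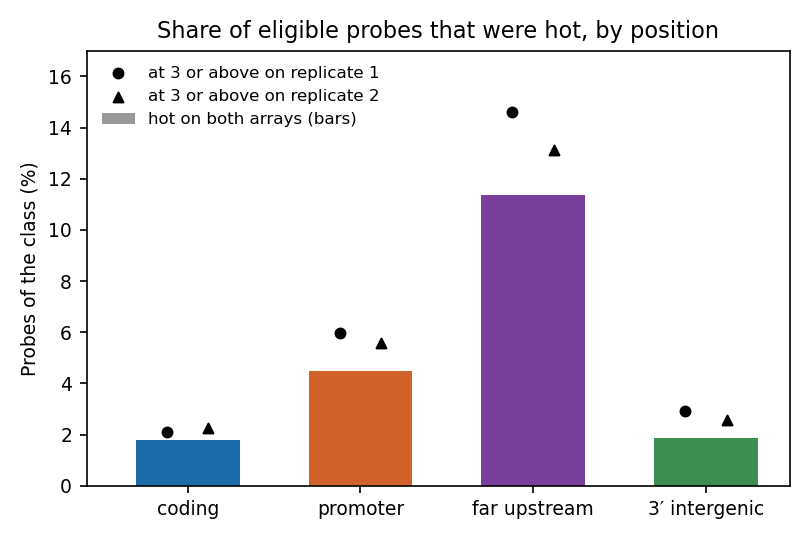
Share of eligible probes that were hot, in percent, for probes in frames, promoters, far upstream DNA and 3′ intergenic DNA; bars show probes at 3 or above on both arrays, and circles and triangles those at 3 or above on replicate 1 or 2. Far upstream DNA is highest on both arrays, and frames and 3′ intergenic DNA are lowest.

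The share of hot probes was higher farther from the start codon, up to a point. In the 100 bp next to a start codon 2.89% of probes were hot, between 200 and 300 bp upstream 4.05%, between 400 and 500 bp 10.8%, and between 500 and 750 bp 15.2%, the highest of the 9 distance classes (117 of 771 probes). Beyond 1500 bp it was 5.09%. The median hot probe upstream of a gene lay 485.5 bp from the nearest start codon and the median eligible one 249.5 bp. Far probes exist only in long gaps, and the share also went with the length of the gap between frames, from 1.16% in gaps of up to 300 bp to 11.7% in gaps of 1000 to 2000 bp. The distance and the gap length were not separated. The loss of dim probes also varied with distance. It was 17.8% within 100 bp, 34.2% between 200 and 300 bp, 25.3% between 500 and 750 bp and 14.3% between 1000 and 1500 bp. Its part in the shares was not tested. Gaps between divergent genes, which hold 2 promoters, had 8.04% hot probes (258 of 3209), gaps between tandem genes 5.19% (250 of 4820), and convergent gaps 1.85% (28 of 1515).

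Inside frames hot probes were more frequent near the ends. With each frame divided into 10 equal parts, the share was 2.63% in the part that begins at the start codon, 0.874% in part 6 and 2.09% in the last. Short frames held more of them. In frames of up to 500 bp 8.80% of probes were hot (88 of 1000), in frames of 1000 to 2000 bp 1.92%, and in frames over 3000 bp 0.357% (21 of 5876). The median frame of a hot coding probe was 1140 bp long, against 1809 bp for all eligible coding probes. In frames of at least 1000 bp the low middle remained, with 1.65% hot in the first part of 3 equal parts, 0.791% in the middle one and 1.40% in the last.

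**Figure D3:**
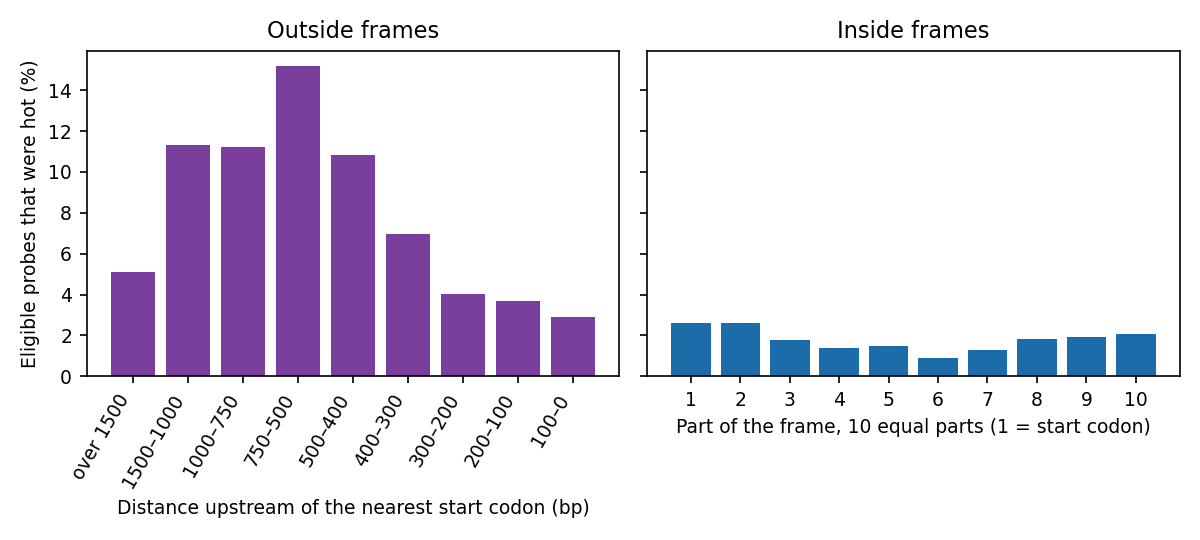
Share of eligible probes that were hot, in percent, by distance upstream of the nearest start codon (left, in bp) and by part of the reading frame (right, 10 equal parts from the start codon to the stop codon). The share peaks at 15.2% between 500 and 750 bp upstream and is lowest, at 0.874%, in part 6 of frames.

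The highest probe of all lay between CDC34, the gene of a ubiquitin-conjugating enzyme, and PST1, a cell wall protein gene (chromosome 4, 562730 to 562789). It was 434.5 bp upstream of CDC34 and read 5.15 on replicate 1 and 4.94 on replicate 2, a mean of 33.0-fold over the array median. The next promoter probe, 495.5 bp upstream of ATG40, a receptor for selective autophagy of the endoplasmic reticulum, read 4.76 and 4.52. The YPR014C promoter read 4.68 and 4.49. PUT4, the proline permease, had a promoter probe at 4.54 on both arrays. The transcription factor genes STP4 (4.32 and 4.66) and ACA1 (4.47 and 4.03) followed, ACA1 together with SPO73, a sporulation gene that shares its gap and read 4.48 and 4.40. The DNA shared by PUS2 and MRH4 read 4.25 and 4.40, and YBR085C-A 4.21 and 4.39. The DNA shared by the H3 and H4 genes HHT2 and HHF2 completed the 10 highest promoter probes at 4.31 and 4.29. On both arrays each of these probes stood above 4.

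Among probes in frames the highest were in BUR6, a subunit of a transcription regulator (chromosome 5, 491858 to 491917), at 4.85 and 4.94 on replicates 1 and 2. AHP1, a thiol peroxidase (chromosome 12, 368966 to 369025), read 4.83 and 4.81. Its neighbour CCW12, a major cell wall mannoprotein (chromosome 12, 369819 to 369878), read 4.64 and 4.88. These are all short frames. In longer ones the highest probe could lie near either end. PET494, a translational activator of mitochondria, read 4.60 and 4.87 at 8.27% of its frame, counted from the start codon. It had 2 of 5 coding probes hot, and its promoter probe read 4.11 and 4.32. MAE1, the mitochondrial malic enzyme, read 4.44 and 4.81 at 94.3% of its frame, where 2 of 7 probes were hot. CDC13, whose product binds telomere ends, read 4.51 and 4.65 at 83.6% of its frame. It had 3 hot probes among 8, next to each other between 62444 and 62954 of chromosome 4, while the lowest CDC13 probe stood at -0.87 on replicate 1. SED1, a cell wall protein, YCH1, a phosphatase, and GAL2, the galactose permease, with 2 probes, completed the 10.

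Far upstream DNA and 3′ intergenic DNA also held probes of this height. The far upstream probes named here were chosen after their values were seen. In the gap between SRM1, a nuclear transport factor, and TOS8, a homeobox transcription factor, probes 895.5 and 813.5 bp upstream of TOS8 read 4.76 and 4.75, and 4.83 and 4.88, the latter with an outlier flag. Further probes in that gap and 2 of the 3 eligible probes in the TOS8 frame were hot as well. Between TPO2 and CBF2 a probe read 4.87 and 4.37, and between NRG1, a repressor gene, and HEM13, a heme biosynthesis gene, 4.71 and 4.43. The 3′ intergenic probes were lower. Their highest lay between PEP8 and YJL052C-A (4.02 and 4.09), between YHL041W and ARN1 (3.94 and 4.12) and between YER138W-A and RTR1 (4.10 and 3.73), and the fourth, between the H4 gene HHF2 and KTR5, read 3.91 and 3.74. The probe between YER138W-A and RTR1 was among the dimmest in Myc, at percentiles of 0.02 and 0.06. Its log2 Flag level was also below the channel median, at -0.64 and -0.33. The other 6 of the 10 highest lay behind NCE102, COA6, MIN3 and CHS5 and, with 2 probes, between AHT1 and HXT1, the glucose transporter gene.

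Hot probes came in runs. Neighbouring hot probes of the tiling, with starts at most 800 bp apart, formed 259 runs that held 722 of the 1039 probes (69.5%), and 317 stood alone. Most runs were short, with 153 of 2 probes and 56 of 3. There were 26 runs of 5 or more, and the longest had 9 probes. The median run spanned 373 bp and the longest span was 2245 bp. Of the runs 75 lay in frames alone, 89 outside frames alone and 95 crossed from one to the other. Probes 60 bp long at a median spacing of 267 bp can sample the same sheared fragments, so neighbours are not independent measurements.

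The DNA beside a run was mostly high without being hot. At the 796 ends of runs or single probes with a measurable neighbour, that neighbour had a median of 2.52, and 72.7% of the neighbours were at 2 or above, against 10.2% of all eligible probes. Only 6 of them (0.754%) lay below the array median. Over all probes that were not hot, the median was 2.66 within 200 bp of a hot probe, 1.56 between 500 and 750 bp, 0.52 between 1000 and 1500 bp and -0.01 between 2000 and 3000 bp. These medians are bounded above, since a probe at 3 on both arrays is hot by definition.

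**Figure D4:**
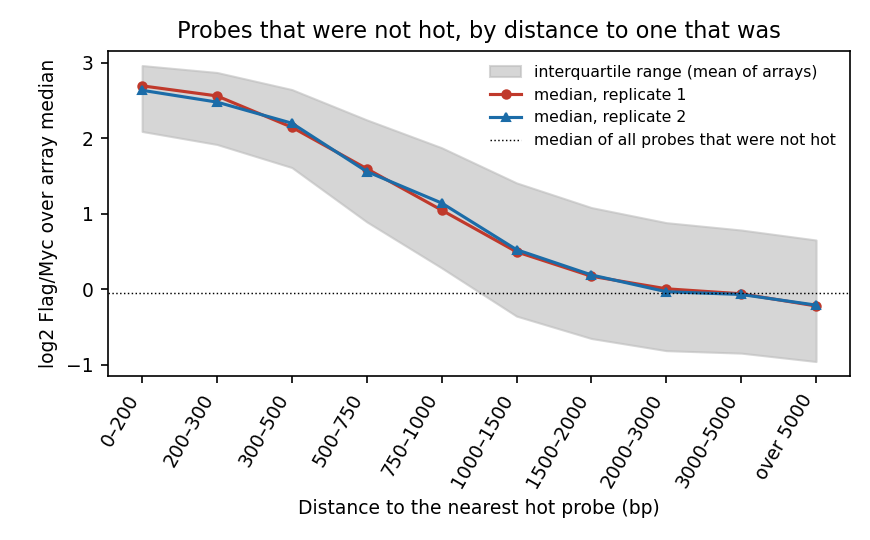
Median log2 ratio, over the array median, of probes that were not hot, by distance to the nearest hot probe in bp, for replicate 1 (circles) and replicate 2 (triangles), with the interquartile range of the mean of both arrays shaded. The median declines from 2.66 within 200 bp to -0.01 between 2000 and 3000 bp, near the median of all probes that were not hot.

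The longest runs covered whole genes or crossed promoters. The run of 9 began in CIK1, whose product is the pheromone-induced partner of the kinesin Kar3 (chromosome 13, 659925 to 662111). All 6 CIK1 probes were hot, and 3 more lay beyond the frame, 562.5 to 1032.5 bp upstream of the G1 cyclin gene CLN1. Values in this run were 3.29 to 4.20 on replicate 1 and 3.18 to 4.29 on replicate 2. The run in FAR1 (chromosome 10, 123962 to 126206) held 8 probes, all in the frame. A run of 8 joined the DNA behind COA6, its frame and promoter, and the promoter and first part of FAA4, an acyl-CoA synthetase gene (chromosome 13, 758487 to 760178). Another run of 8 went from the frame of ECM21, an arrestin-related protein, through its promoter into the gap towards ATP1 (chromosome 2, 27816 to 29494).

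The other long runs followed the same types. A run of 7 crossed NCW2, a cell wall protein gene, from the UPS1 promoter into the frame of NMT1 (chromosome 12, 540765 to 542147), with values from 3.10 to 4.43 on replicate 2. A run of 6 crossed the start of ALP1, the arginine permease, and BSC4, and ended in the promoter of LYP1, the lysine permease (chromosome 14, 137257 to 138249). HPF1, a mannoprotein, had 1 hot probe at the start of its frame in a run of 6 that otherwise lay upstream, towards ZPS1 (chromosome 15, 31460 to 32567). The remaining 3 of the 10 longest were in GAL2, YAT1 and from HTB1 to the HTA1 promoter. Runs of 6 in TEC1 and PRM1 were as long. They are not among the 10 because the cut falls within a tie of 7 runs of 6 probes.

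By gene, 307 of the 5578 genes with an eligible coding probe had at least 1 hot one (5.50%), and 248 of 4649 had a hot promoter probe (5.33%). One or the other was hot in 463 of 5692 genes (8.13%). Of these 463 genes, 81 are in any of the 20 gene lists described below, so most hot genes are in none. In 188 genes 1 coding probe was hot, in 87 genes 2, and in 32 genes 3 or more. All coding probes were hot in 90 genes, of which 42 have a single probe and 17 have 3 or more. Of 4535 genes measured in both, 252 had a hot frame (5.56%) and 237 a hot promoter (5.23%), and 92 had both, which is 36.5% of the first and 38.8% of the second. Frame and promoter probes of a gene are neighbours in the tiling and not independent. Of the 15 genes with the most hot coding probes, 13 had an eligible promoter probe and in 1, PUT4, it was hot. The cut at 15 falls within a tie at 4 hot coding probes, which 17 genes reached or passed. SST2, outside the 15 with 4 of 6, had a hot promoter probe.

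Of 13 measured galactose genes, 4 had a hot probe (30.8%, against 8.13% of all genes), and in these 4 the whole frame was hot. The structural genes GAL1, GAL2, GAL7 and GAL10, which galactose induces, had all 21 of their coding probes hot. In GAL2, the permease (chromosome 12, 290214 to 291938), the 6 probes read from 3.95 to 4.83 on replicate 1 and from 4.07 to 4.65 on replicate 2, with a gene mean of 4.35 ± 0.04 (SD, n = 2). In GAL1, galactokinase (chromosome 2, 279022 to 280608), the 5 probes read 3.80, 4.10, 4.39, 4.25 and 4.22 from start to stop on replicate 1, and 4.00, 3.96, 4.53, 4.66 and 4.07 on replicate 2. The highest values were thus in the middle of the frame on both arrays.

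GAL10, the epimerase (chromosome 2, 276254 to 278353), had the same form, with a highest value of 4.49 on replicate 1 and 4.38 on replicate 2 in the middle, 3.82 and 3.57 next to the start codon and 3.43 and 3.33 near the stop codon. GAL7, the uridyltransferase (chromosome 2, 274428 to 275528), read 3.49 to 4.05 and 3.55 to 4.14. In the DNA between GAL1 and GAL10 one probe read 1.61 and 1.69 and the other 2.78 and 3.22, so that the second passed 3 on replicate 2 alone. The GAL7 promoter probe read 2.24 and 2.26. GAL2 had no eligible promoter probe. None of the 12 measured promoters of the list was hot, against 5.33% of all genes with a measured promoter. At that share, so few promoters would hold few hot ones or none as well. The inducible H3-Flag gene needs a galactose-driven promoter, and DNA of the strain's constructs can also bind probes of the same sequence, whose part in these values was not tested.

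Genes that alpha factor induces formed the longest list of hot frames. Of 37 measured pheromone response genes, 16 had a hot probe (43.2%, against 8.13% of all genes), and in all 16 it lay in the frame. A hot promoter was found in SST2 alone, 1 of 28 measured (3.57%, against 5.33% of all genes with a measured promoter). FAR1, the inhibitor that arrests the cell cycle in G1 (chromosome 10, 123754 to 126246), had 8 of 8 probes hot, from 3.66 to 4.35 on replicate 1 and from 3.55 to 4.20 on replicate 2, with a mean of 3.87 ± 0.06 (SD, n = 2). CIK1 (chromosome 13, 659745 to 661529) had 6 of 6, with a mean of 3.67 ± 0.09, although its 2 promoter probes read 1.95 and 1.79, and 1.94 and 1.87. Both genes were thus hot from one end of the frame to the other.

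Other members differed in how much of the frame was hot. FUS2, which acts in cell fusion (chromosome 13, 736926 to 738959) had 5 of 6 probes hot, and its value declined to 2.63 and 2.66 at the stop codon end. PRM1, needed for the membranes of mating cells to fuse (chromosome 14, 110916 to 112901), had 6 of 7, and only its last probe was low, at 1.71 and 2.25. SST2, which turns the pheromone signal off, had 4 of 6 coding probes hot, the highest at 3.59 and 3.86, and a promoter probe at 3.11 and 3.02. FUS1 had 3 of 5 coding probes hot, KAR5 1 of 5 and FIG2 1 of 15, a choice made after their values were seen. The median coding probe of the whole pheromone list stood at 2.21, against -0.35 for all coding probes. These genes answer the treatment that all cells received, so there is no group without it to set them against.

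Histone genes held hot DNA at frames and promoters. Of 9 measured histone genes 6 had a hot probe (66.7%, against 8.13% of all genes). These 6 genes are not 6 separate loci. HHF2 and HTA1 had no eligible coding probe and were hot by promoter probes alone. The HHF2 promoter probe is also that of HHT2, and HTA1 shares a hot promoter probe with HTB1. The divergent pair HTB1 and HTA1, for H2B and H2A, formed a run of 6 probes from the HTB1 frame to the HTA1 start codon (chromosome 4, 914397 to 915517). Its values in order of position were 3.5, 3.27, 3.26, 3.35, 4.05 and 3.16 on replicate 1, and 3.29, 3.39, 3.18, 3.91, 3.96 and 4.47 on replicate 2. Within this run the arrays differ most at the end next to HTA1. The single HHT2 coding probe read 3.79 and 4.11, and of 2 HHT1 probes one read 3.52 and 4.10. HHT1 and HHT2 code for H3, so their probes, and that of the DNA shared by HHT2 and HHF2, can also read the tagged H3 genes.

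Cell wall genes included several of the highest frames. Of 20 measured mannoprotein and wall protein genes, 9 had a hot probe (45.0%, against 8.13% of all genes). SED1 (chromosome 4, 600790 to 601806), an abundant wall protein, had 4 of 4 coding probes hot at 4.57, 4.03, 4.20 and 4.10 on replicate 1 and 4.77, 4.69, 4.53 and 4.05 on replicate 2, in order from the start codon. Its promoter probe differed between the arrays, at 2.48 and 4.39. CCW12 and CWP2 had 2 of 2 coding probes hot, and PIR3 had a hot promoter probe at 3.51 and 3.92 and no hot coding probe. HSP150 (chromosome 10, 120445 to 121686), a secreted wall protein, had 4 of 4, from 3.01 to 3.75 on replicate 1 and from 3.22 to 3.59 on replicate 2. Several of these genes carry repeats or have close relatives, and whether their probes also read other DNA was not tested.

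Amino acid uptake and synthesis followed. Of 19 measured amino acid permease genes 7 had a hot probe (36.8%, against 8.13% of all genes). In 5 of 19 the frame was hot (26.3%, against 5.50%) and in 5 of 15 the promoter (33.3%, against 5.33%). PUT4 (chromosome 15, 986895 to 988778) was hot at 5 of 5 coding probes, from 3.38 to 4.01 on replicate 1 and from 3.29 to 4.37 on replicate 2, and at its promoter. ALP1 had 3 of 7, all near the start of the frame, and its lowest probe stood at 0.29 and 0.27. BAP3 was hot at 1 of 6 coding and 1 of 2 promoter probes, and LYP1 at its promoter alone. In the AGP1 gap, whose probes could not be placed, 5 probes were hot, the highest at 4.25 and 4.5 and at 4.34 and 4.38, an example chosen after its values were seen. Of 44 measured genes of amino acid synthesis under Gcn4, 10 had a hot probe (22.7%, against 8.13% of all genes). HIS3 read 4.21 and 4.05 at its highest probe, GCN4 itself had 3 of 3 hot with a mean of 3.39 ± 0.09 (SD, n = 2), ILV5 had 2 of 4, and LEU4 was hot in its promoter alone.

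Smaller counts came from other lists, again against 8.13% of all genes. In the phosphate regulon 4 of 16 genes had a hot probe (25%), led by PHM6 at its promoter (3.59 and 3.91) and PHO84, the phosphate transporter, at the start of its frame (3.70 and 3.26). Of 26 glucose-repressed carbon genes 4 did (15.4%). YAT1, a carnitine acetyltransferase (chromosome 1, 190188 to 192251), had 6 of 8 probes hot, and its first 2 probes, at 1.96 and 2.54 and at 2.54 and 3.33, were not. CIT2, the peroxisomal citrate synthase, was hot at the promoter (3.51 and 4.12), JEN1, the lactate permease, at 1 coding and 2 promoter probes, and ADY2, an acetate transporter, at 1 coding probe. Among G1 cyclin and Start genes, 2 of 13 were hot (15.4%). WHI5, the repressor of Start, had 3 of 3 coding probes hot at 3.82, 3.75 and 3.84 on replicate 1 and 4.48, 4.39 and 4.18 on replicate 2, so replicate 2 was higher at each. PCL2, a G1 cyclin, had 2 of 3.

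Respiration genes had a hot probe in 5 of 37 (13.5%) and redox defence genes in 3 of 23 (13.0%). Heat shock genes with 2 of 20 (10%) and glycolysis genes with 2 of 22 (9.09%) were near the 8.13% of all genes. AHP1 and SOD1, the copper and zinc superoxide dismutase, had both of their coding probes hot, and QCR2, NDE1 and CYC1 of the respiratory chain had 2 of 4, 2 of 6 and 1 of 1. PFK2 was hot at 2 probes near its start codon, the higher one at 3.99 and 3.87, and PDC1 at 1 probe next to its start codon, at 3.75 and 3.28. TEC1, which activates genes of filamentous growth (chromosome 2, 409164 to 410624), and ALD6, the cytosolic acetaldehyde dehydrogenase (chromosome 16, 432586 to 434088), are in none of the lists with their 5 of 5 hot coding probes. TEC1 read 3.02 to 3.59 and 3.48 to 3.99, against 0.28 and 0.41 at its promoter probe. BNA2, a dioxygenase of NAD synthesis, had 5 of 6 probes hot, highest next to the start codon at 3.82 and 3.93.

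The largest lists, cytosolic ribosomal proteins and ribosome biogenesis, had few hot genes or none. Of 131 measured cytosolic ribosomal protein genes 4 had one, or 3.05%, against 8.13% of all genes. RPS3, RPS9A and RPL15B had it in the promoter and RPL9B in the frame. Ribosome biogenesis had 0 of 53 genes. Below the threshold these lists differed. The median coding probe stood at 0.70 for cytosolic ribosomal proteins and at -0.68 for ribosome biogenesis, against -0.35 for all coding probes. The remaining lists are small, and at 8.13% they would hold few hot genes as well. The G2/M cluster had 0 of 15. The PAU, DAN and TIR genes had 0 of 12, of which 6 had an eligible coding probe. Meiosis had 1 of 26, the IME2 promoter at 3.31 and 3.44, the proteasome 1 of 33 (3.03%), PRE7, and translation factors 1 of 20 (5%), CAM1, which had 2 of 4 coding probes and its promoter probe hot. The lists were chosen with earlier results in view, so these counts describe them and carry no test.

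A high ratio can come from much Flag or from little Myc, and the hot probes included both. Both channels are parts of the ratio that chose the probes. More Flag or less Myc than in other probes thus follows from the selection, and the levels below are a description. Relative to the median of each channel, 786 (75.6%) had Myc below it on both arrays and 138 (13.3%) above it on both, while 966 (93.0%) had Flag above it on both. Hot probes in frames were mostly Flag-rich. Their median log2 Flag level over the channel median was 3.05 on replicate 1 and 3.24 on replicate 2, where all frame probes had 0.12 and 0.08. Their median Myc level was -0.55 and -0.46, where all frame probes had 0.39 and 0.30.

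Hot promoter probes had less of both. Their median Flag level was 1.66 and 1.79, against -0.45 and -0.26 for all promoter probes, and their median Myc level was -2.01 and -1.74, close to the -1.60 and -1.32 of all promoter probes. Far upstream hot probes had Flag at 1.56 and 1.87 and Myc at -2.10 and -1.78, where their class had Myc at -1.22 and -0.99. Outside frames, 504 of the 549 hot probes (91.8%) had Myc below the channel median on both arrays, and in frames 282 of 490 (57.6%). Low Myc signals are closer to background, so ratios outside frames rest on dimmer spots. The highest probe of all, upstream of CDC34, lay at percentiles of 0.64 and 0.95 in Myc and of 75.8 and 85.6 in Flag.

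At the other end were probes bright in both channels, which are named here after their values were seen. In 5 hot probes, all in frames, Myc stood above the 95th percentile on both arrays. They lay in TIP1, HSP150 and HPF1, whose products are wall mannoproteins, in MID2, a sensor of wall stress, and in KTR5, a mannosyltransferase gene next to HHF2. Their Flag percentile was at least 99.96 on both arrays. The MID2 probe (chromosome 12, 791151 to 791210) read 4.02 and 4.5 with Myc at percentiles of 96.7 and 98.6, and the TIP1 probe (chromosome 2, 372315 to 372374) read 3.26 and 3.24 with Myc at percentiles of 97.3 and 99.9.

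**Figure D5:**
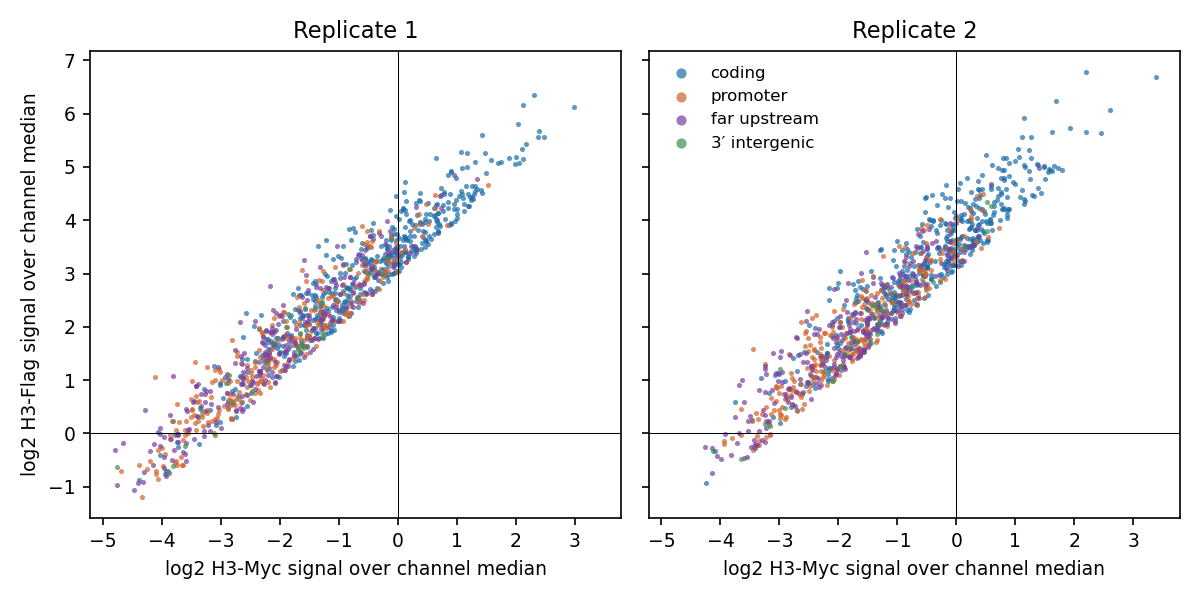
Level of H3-Myc (horizontal) and H3-Flag (vertical) at the hot probes, each as log2 over the median of its channel on that array, for replicate 1 and replicate 2, coloured by position; the 13 probes that could not be placed are left out. Hot probes outside frames lie at low Myc, and those in frames extend to Flag levels above 5 with Myc above the median.

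Other annotated DNA was sampled thinly. Near tRNA genes, within 300 bp, 16 of 372 probes were hot (4.30%), near long terminal repeats 10 of 292 (3.42%), near small nuclear and nucleolar RNA genes 8 of 125 (6.40%), near listed replication origins 5 of 84 (5.95%), and near centromeres 0 of 17. Most of these probes lie outside frames, where 5.47% of all eligible probes were hot. Within 20 kb of the outermost probe of a chromosome the share was 2.62% (43 of 1641). By chromosome it ran from 1.32% on chromosome 6 to 3.71% on chromosome 2.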

How the data were processed

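The files are Agilent Feature Extraction 8.5.1.1 output, whose processed intensity values the authors deposited, per the file headers. The deposited log10 ratio is Myc over Flag. A deposited value table has the same ratio as log2, uncentred, its medians being 0.378 and 0.355, and was read with the sign reversed. Log2 Flag over Myc was centred on each array's median over eligible probes (-0.46 and -0.45 before), so 0 does not mean that both tags were equal. Arrays hold no counts, and their number limits the precision. No test was run, because the ratio chose the probes.

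Distances listed in the files gave the left end of 6593 frames. Lengths came from the RefSeq R64 gene table, which matched 5927. Of these 63 were left out because their left end was off by more than 10 bp from that of their neighbours. Listed frames without a match were not used. Probes in them were classed by the matched frames alone and can count as lying outside frames. Coordinates are as in the files, and their build is not stated in the sources used here. A probe's midpoint sets its class.

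Named were the 10 highest probes in frames, promoters and 3′ intergenic DNA, the 10 longest runs, the 15 genes with the most hot coding probes, the 10 with the largest share, up to 4 genes of each of 20 lists, and the probes nearest the threshold. The members and lists were chosen with earlier results of these data known. Alternatives were normexp (offset 50) and loess in limma 3.58.1 (R 4.3.3), scaled arrays, no dim filter, no outlier flags, other thresholds and windows, and each array alone. Scripts ran in Python 3.11.15 and were tested on simulated data.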

Additional observations from a re-analysis of the deposited data

How the results depend on the processing

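The set of hot probes depended on the background correction and the threshold. Normexp left 366 hot probes, all among the 1039, in 148 genes by frame and 69 runs. A threshold of 2.5 gave 1936 probes, 559 genes and 469 runs, and one of 3.5 gave 413, 139 and 86. Loess kept 704 of the 1039, without the dim filter 893 remained, without outlier flags 984, and the value table gave the same 1039. All 1039 pass the dim filter. Without it each array was centred anew on all nuclear probes, which raised the cut for these 1039. Each array alone called 1284 to 1300 probes, 356 to 389 genes and 317 to 319 runs. The cause of the other differences was not tested. The order of far upstream, promoter and frame in the share of hot probes held under each of these settings, with 3.18%, 1.20% and 0.796% under normexp.

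The share of hot probes in frames, 47.2%, was 44.1% to 48.3% on one array alone, 43.8% without the dim filter, 59.3% with normexp and 34.7% with loess. The promoter share, 25.5%, was 25.6% to 27.1% on one array, 27.1% without the dim filter, 19.4% with normexp, 32.6% with loess, 28.0% and 24.0% at thresholds of 2.5 and 3.5, and 15.1% with promoters of 300 bp. The median ratio, 3.53, was 3.42 to 3.44 on one array, 3.51 without the dim filter, 3.37 with normexp, 3.55 with loess, and 3.17 and 3.90 at the other thresholds. The median Myc percentile, 20.3, was 19.0 to 20.5 on one array, 24.6 without the dim filter, 31.5 with normexp, 13.9 with loess, and 21.9 and 18.2 at the other thresholds. The median Flag percentile, 93.7, was 90.8 to 94.7 on one array, 98.0 with normexp and 88.2 with loess. Signal over background limits what can be called, since 3964 nuclear probes were too dim, most often outside frames. No paired analysis was possible because there is 1 group.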
